A study of Mus musculus with 8 samples.

Results

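The genes of the cytosolic heat shock chaperone system, with the mitochondrial co-chaperonin *Hspe1*, were examined in thymic epithelial cells (TECs) taken directly from the thymus, grown in 2D or grown as organoids. The members are *Hspa1a*, *Hspa1b*, *Hspa8*, *Hsp90aa1*, *Hsp90ab1*, *Hspb1*, *Hsph1*, *Dnaja1*, *Dnajb1* and *Hspe1*, a list of inducible and constitutive chaperones matched by Ensembl identifier. They make up 10 of the 56923 genes counted, and all 10 passed the filter on low counts, which kept 14504 genes.

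Bulk RNA sequencing covered 4 groups of 2 libraries each, all from wild-type C57BL/6J embryos at E16.5 whose thymi were digested with TrypLE at 37°C and sorted for EpCAM, the epithelial adhesion molecule used to isolate TECs. *In vivo* TECs were lysed straight after the sort with no further treatment. 2D-cultured TECs grew on laminin and were lysed in the dish at day 3, and organoids grew in Matrigel, were released into cold PBS, and were lysed at day 3 (D3) or day 7 (D7). The culture medium held FGF7, an epithelial growth factor, and thiazovivin, a small-molecule kinase inhibitor, was present in the tubes that received the sorted cells and at the start of organoid culture. The cells of each group therefore reached lysis by a different route, and the effects of culture, of digestion and sorting and of the way cells were collected cannot be told apart by this design. In each group the labels name 2 biological replicates, and p-values measure the spread between those 2 libraries as pooled over the 4 groups. With 2 libraries against 2, an exact permutation test of a single value cannot go below p = 0.333, so the calls here rest on edgeR's fit across all genes.

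Chaperones bind proteins that are not yet folded or have lost their fold. In the cytosol, J-domain proteins hand clients to HSP70, nucleotide exchange factors of the HSP110 family reset HSP70, and HSP90 finishes the folding of kinases, receptors and other regulators, while small heat shock proteins hold unfolded proteins without using ATP. Heat shock factor 1 (HSF1) switches on many of these genes when unfolded proteins build up, by binding repeats of the word GAA and its complement TTC in their promoters, and several members are also transcribed in unstressed cells.

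The 2 inducible HSP70 genes carry nearly the same promoter, which is shown because the transcripts of the pair are set side by side below, together with the promoter of *Hspb1*, the member with the largest rise in 2D culture. Each window holds the 250 bases before the start of the gene's canonical transcript in GENCODE M39, read from the GRCm39 genome on the gene's strand, at chr17:35191133-35191382 on the minus strand for *Hspa1a*, chr17:35178215-35178464 on the minus strand for *Hspa1b* and chr5:135916510-135916759 on the plus strand for *Hspb1*. Capitals mark matches to GAANNTTC, a pair of facing heat shock words.
Hspa1a: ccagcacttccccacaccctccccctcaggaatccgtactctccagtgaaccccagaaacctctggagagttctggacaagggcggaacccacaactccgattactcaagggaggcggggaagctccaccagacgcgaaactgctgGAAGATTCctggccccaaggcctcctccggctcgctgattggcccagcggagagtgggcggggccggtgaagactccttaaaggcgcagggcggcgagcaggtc
Hspa1b: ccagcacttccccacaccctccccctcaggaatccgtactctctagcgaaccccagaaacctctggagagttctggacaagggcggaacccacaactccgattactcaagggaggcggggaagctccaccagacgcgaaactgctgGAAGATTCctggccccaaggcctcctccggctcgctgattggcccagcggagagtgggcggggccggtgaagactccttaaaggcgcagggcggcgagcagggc
Hspb1: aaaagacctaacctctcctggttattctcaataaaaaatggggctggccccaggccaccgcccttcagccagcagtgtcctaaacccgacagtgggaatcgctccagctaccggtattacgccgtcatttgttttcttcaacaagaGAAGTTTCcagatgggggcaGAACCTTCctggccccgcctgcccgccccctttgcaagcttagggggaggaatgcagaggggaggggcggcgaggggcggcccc

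The *Hspa1a* and *Hspa1b* windows were identical at 247 of 250 bases (98.8%). Counted from 1 at the 5′ end, with the *Hspa1a* base first, they differed by C44T, T47C and T249G, none of which touches the marked word. That word lies 104 to 97 bases before the start of both genes. In *Hspb1*, 1 match lies 104 to 97 bases and another 84 to 77 bases before the start.

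GAANNTTC, a palindrome, was searched on both strands. With the near-identical *Hspa1a* and *Hspa1b* windows counted separately, it was found in 5 of 10 members, against 6.33% of 21757 promoters of the same length. Besides the genes printed, it was found in *Dnaja1* and *Hspe1*. Its mirror arrangement TTCNNGAA was found in 2 of 10 members, *Hsph1* and *Hspe1*, against 6.79% of promoters. The 3-word element GAANNTTCNNGAA, which contains both of them, was found in 0.349% of promoters and in 1 member, *Hspe1*, where a run of 18 bases on the plus strand (chr1:55127218-55127235) lies 73 to 56 bases before the start.
Hspe1: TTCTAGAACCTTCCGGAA
In that line all letters are capitals because every base belongs to overlapping matches. CCAAT, a general promoter word, was found in 6 of 10 members against 36.5% of promoters, and TATAAA in 0 of 10 against 11.9%. These are matches of letters and not measurements of binding, and a window without a match says only that these letters are not in these 250 bases.

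Counts summed to between 5084715 and 7612532 per library, ribosomal RNA genes took 22.7% to 29.4% of them, and the members together took 0.581% to 0.739%. Levels below are CPM, each library's counts scaled to a fixed total after TMM normalisation, with the first and second replicate in that order and mean ± SD over n = 2. Of 10 TEC markers none was at 0 in any library, and their summed level was 7468 and 7779 CPM *in vivo*, 7140.0 and 6500.3 CPM in 2D and between 1472 and 2001 CPM in organoids. In 2D over *in vivo* edgeR called 5 of the 10 higher and 5 lower, with *Krt14*, a basal keratin, at 919 and 1047 CPM in 2D against 19.8 and 22.3 CPM *in vivo*, *Foxn1*, the master regulator of TECs, at 8.55 and 4.83 against 224 and 274 CPM, and *Psmb11*, a thymoproteasome subunit, at 0.546 and 0.557 against 523 and 556 CPM. In D3 organoids *Foxn1* and *Psmb11* were at means of 9.22 and 0.743 CPM. In D7 organoids *Foxn1* had 489 and 431 raw counts and *Psmb11* 858 and 570. In 2D these were 47 and 26 for *Foxn1* and 3 and 3 for *Psmb11*. *Krt18*, a keratin, led the sum in 2D with a mean of 3377 CPM, against 259 CPM at D3. Over 2D edgeR called 2 of the 10 markers higher and 6 lower at D3, and 5 higher and 5 lower at D7. The shares of all genes over 2D were 19.3% and 19.1% at D3, and 24.4% and 21.1% at D7. Over *in vivo* edgeR called 2 of the 10 higher and 7 lower at D3, and 1 higher and 8 lower at D7. Of all genes 19.9% were higher and 21.7% lower in 2D, 14.1% and 14% at D3, and 18% and 16.8% at D7. *Krt14*, *Foxn1* and *Psmb11* were named after their values were seen, and the part of these shifts in the chaperone levels was not tested. Thymocyte markers, which the sort for EpCAM should leave out, summed to 662 and 292 CPM in the *in vivo* libraries and to between 2.36 and 9.29 CPM in the 6 cultured libraries. The defining genes *Rag1*, the recombinase of lymphocytes, and *Ptprc*, which encodes CD45, were at 287 and 133 CPM and at 95.6 and 42.0 CPM *in vivo*, and 1 of the 10 markers was at 0 in each of those libraries against 3 to 7 in the others. In bulk RNA, fewer cells of a type and less RNA per cell cannot be told apart. Markers of mesenchyme summed to between 17.9 and 79.5 CPM, and those of endothelium, erythroid cells and myeloid cells to at most 5.22, 11.99 and 12.3 CPM.

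**Figure D1:**
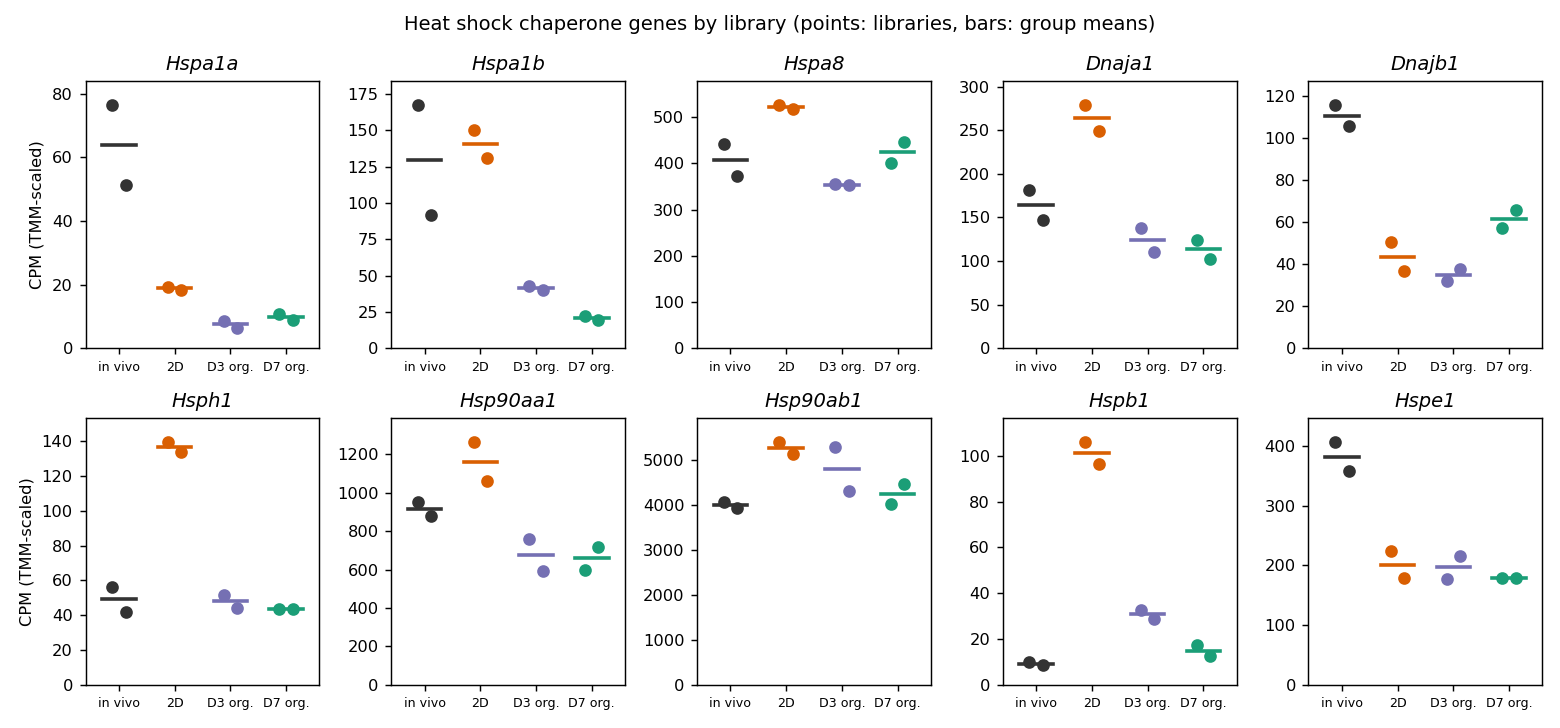
Level of each member in CPM after TMM scaling (y axis, linear from 0) in the 4 groups (x axis), with 1 point per library and a bar at the mean of the 2 libraries. *Hspb1*, *Hsph1*, *Dnaja1*, *Hspa8* and *Hsp90aa1* are highest in both 2D libraries, *Hspa1a*, *Dnajb1* and *Hspe1* in both *in vivo* libraries, and *Hspa1b* is low in all 4 organoid libraries.

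*Hspa1a* and *Hspa1b* encode the stress-inducible HSP70, whose protein differs little between the 2 genes. *Hspa1a* (ENSMUSG00000091971, chromosome 17: 35188166-35191132, minus strand) was at 76.4 and 51.2 CPM *in vivo* (63.8 ± 17.8), 19.3 and 18.4 CPM in 2D (18.8 ± 0.636), 8.62 and 6.29 CPM in D3 organoids (7.45 ± 1.65) and 10.8 and 8.70 CPM in D7 organoids (9.75 ± 1.48). Both *in vivo* libraries lay above all cultured ones, and both 2D libraries above all organoid ones. From *in vivo* TECs it fell by 1.76 ± 0.26 (SE) on the log2 scale in 2D, by 3.10 ± 0.28 at D3 and by 2.69 ± 0.27 at D7, with adjusted p-values of 2.86e-05, 1.71e-07 and 7.12e-07 in edgeR's quasi-likelihood test. In organoids it was also below 2D, at D3 by a log2 difference of -1.34 (edgeR adjusted p = 0.00119) and at D7 by -0.94 (0.011). The D7 call was lost without 2D replicate 1 (-0.90, edgeR adjusted p = 0.0582) or D7 replicate 2 (-0.80, 0.0816). D3 and D7 organoids did not differ past the threshold (0.41, edgeR adjusted p = 0.365).

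*Hspa1b* (ENSMUSG00000090877, chromosome 17: 35175412-35178214, minus strand) did not pass the test between 2D and *in vivo*. It was at 167 and 91.7 CPM *in vivo* (129 ± 53.5), 150.0 and 131 CPM in 2D (141 ± 13.4), 42.8 and 40.1 CPM in D3 organoids (41.4 ± 1.86) and 21.8 and 19.4 CPM in D7 organoids (20.6 ± 1.74). The 2D libraries lay between the 2 *in vivo* libraries, and all 4 organoid libraries lay below both groups. The log2 difference of 2D over *in vivo* was 0.12 ± 0.22 (edgeR adjusted p = 0.695). It turned on the *in vivo* replicates, being 0.62 without *in vivo* replicate 1 (edgeR adjusted p = 0.0303) and -0.24 without *in vivo* replicate 2 (0.374). Replicate 1 also held more thymocyte marker RNA, as given above. *In vivo* replicate 1 also lay above replicate 2 for other members, by ratios of 1.49 for *Hspa1a*, 1.34 for *Hsph1* and 1.23 for *Dnaja1*. In each culture replicate 1 lay above replicate 2 as well for *Hspa1a*, *Hspa1b* and *Dnaja1*. The ratios in 2D, D3 and D7 were 1.14, 1.07 and 1.13 for *Hspa1b* and 1.12, 1.26 and 1.21 for *Dnaja1*. The part of thymocyte transcripts in the level of *Hspa1b* or of any other member was not tested. In organoids *Hspa1b* fell by 1.64 ± 0.23 at D3 and by 2.64 ± 0.24 at D7 from the *in vivo* level (edgeR adjusted p = 3.23e-05 and 2.77e-07), and its log2 differences from 2D were -1.76 and -2.76. Between D3 and D7 it dropped by 1.0 (edgeR adjusted p = 0.00777), a call lost without D3 replicate 1 (-0.95, 0.0553) or D7 replicate 2 (-0.92, 0.0654).

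The share of each gene in the counts of the pair is given as a description. Of the counts on either gene, *Hspa1a* took 31.4% and 35.8% *in vivo*, 11.4% and 12.3% in 2D, 16.8% and 13.6% in D3 organoids and 33.1% and 31.0% in D7 organoids. The shares in 2D and D3 libraries were all below those in *in vivo* and D7 libraries. The reads can be assigned in principle, because 58.8% of the 50-base words of the *Hspa1a* transcript also occur in *Hspa1b* but 0% of those in its last 500 bases, where this 3′ method reads. With both genes summed to 1 row, the log2 difference of 2D over *in vivo* was -0.28 ± 0.21 (edgeR adjusted p = 0.305), and the sum fell by 1.98 at D3 and by 2.66 at D7 (edgeR adjusted p = 2.03e-06 and 1.03e-07). The difference between the 2 genes in their changes was not itself tested.

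*Hspa8* encodes the constitutive HSP70 of the cytosol, which also drives clathrin uncoating and chaperone-mediated autophagy. *Hspa8* (ENSMUSG00000015656, chromosome 9: 40711630-40731039, plus strand) was at 441 and 372 CPM *in vivo*, 526 and 518 CPM in 2D, 354 and 354 CPM in D3 organoids and 400.3 and 447 CPM in D7 organoids. The range over the 8 libraries was thus narrow, and only D3 organoids against 2D passed the test (-0.56 ± 0.14, edgeR adjusted p = 0.00535), a call lost when scaled by library size alone (-0.30, 0.109). Both 2D libraries exceeded both *in vivo* libraries, with a log2 difference of 0.36 ± 0.14 just outside the threshold (edgeR adjusted p = 0.0549), and the call was made under 10 of 18 alternatives, among them without *in vivo* replicate 1 (0.49, 0.0471) and without D3 replicate 1 (0.36, 0.0443) or D3 replicate 2 (0.41, 0.0241). Its 3′ sequence recurs elsewhere in the genome for 90.5% of words, but the processed copies that share it had few counts, 17 in all libraries for *Gm15459* and 5 for *Gm8355*. How reads that fit more than 1 locus were counted is not given in the sources used here, so its level is uncertain.

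**Figure D2:**
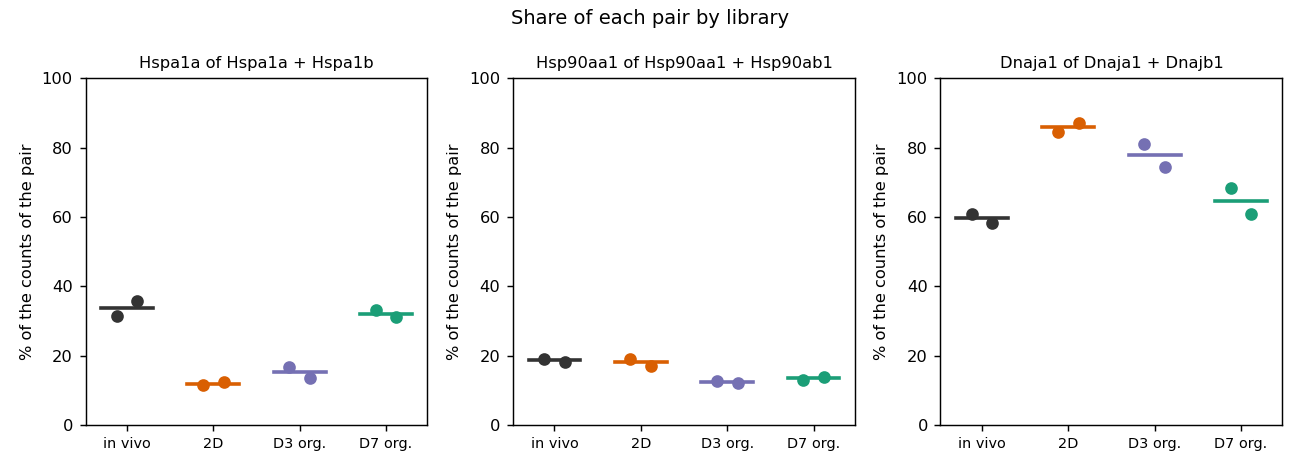
Share of each gene pair's counts, in percent from 0 to 100 (y axis), taken by the first-named gene in each library (points) and on average (bars) in the 4 groups (x axis). *Hspa1a* takes 31.0% or more in *in vivo* and D7 libraries and at most 16.8% in 2D and D3 libraries, and *Dnaja1* takes its highest shares in 2D.

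*Dnaja1* and *Dnajb1* encode the main class A and class B J-domain partners of cytosolic HSP70, and the 2 moved in opposite directions in 2D culture. *Dnaja1* (ENSMUSG00000028410, chromosome 4: 40722056-40737149, plus strand) was at 181 and 147 CPM *in vivo*, 279 and 249 CPM in 2D, 138 and 110.0 CPM in D3 organoids and 124 and 102 CPM in D7 organoids. All 2D libraries lay above the rest and all organoid libraries below the *in vivo* ones. It rose by 0.69 ± 0.17 in 2D from *in vivo* (edgeR adjusted p = 0.00396) and was lower in organoids than in 2D, with log2 differences of -1.09 at D3 and -1.21 at D7 (edgeR adjusted p = 8.66e-05 and 2.53e-05). The difference from *in vivo* was -0.40 at D3 (edgeR adjusted p = 0.0963) and -0.53 at D7 (0.0255), the latter lost without *in vivo* replicate 1 (-0.37, 0.209) or D7 replicate 2 (-0.40, 0.224). The 3′ end of *Dnaja1* overlaps exons of *Smu1* on the other strand, and whether strand was used in counting is not given in the sources used here.

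*Dnajb1* (ENSMUSG00000005483, chromosome 8: 84334811-84339820, plus strand) was at 116 and 106 CPM *in vivo* (111 ± 7.05), 50.7 and 36.6 CPM in 2D (43.7 ± 10.02), 32.1 and 37.7 CPM in D3 organoids (34.9 ± 3.99) and 57.3 and 65.8 CPM in D7 organoids (61.6 ± 6.03). The *in vivo* libraries stood above all others, and D7 organoids came next. *Dnajb1* fell by 1.34 ± 0.20 in 2D, by 1.66 ± 0.20 at D3 and by 0.85 ± 0.19 at D7 (edgeR adjusted p = 3e-05, 5.32e-06 and 0.00242). From D3 to D7 it rose by 0.81 ± 0.20 (edgeR adjusted p = 0.00768), a call lost without D3 replicate 1 (0.70, 0.079) or D7 replicate 2 (0.71, 0.0801). D7 organoids over 2D stood at 0.49 (edgeR adjusted p = 0.0508), past the threshold without 2D replicate 1 (0.75, 0.0251). The ratio of *Dnaja1* to *Dnajb1* counts was 1.56 and 1.39 *in vivo*, 5.49 and 6.80 in 2D, 4.31 and 2.91 at D3 and 2.17 and 1.56 at D7.

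*Hsph1* encodes HSP110, the nucleotide exchange factor that lets HSP70 release its client. *Hsph1* (ENSMUSG00000029657, chromosome 5: 149537636-149560156, minus strand) was at 56.4 and 42.0 CPM *in vivo* (49.2 ± 10.2), 139 and 134 CPM in 2D (137 ± 3.86), 51.5 and 44.3 CPM in D3 organoids and 43.5 and 43.5 CPM in D7 organoids. It was high in 2D, and the organoid libraries lay within or near the *in vivo* range. It rose 2.78-fold in 2D over *in vivo* (log2 1.48 ± 0.19, edgeR adjusted p = 5.35e-06). Organoids were below 2D at D3 (-1.51) and D7 (-1.65), with edgeR adjusted p-values of 5.02e-06 and 1.74e-06. Against *in vivo* TECs the organoid differences were -0.04 and -0.17 (edgeR adjusted p = 0.91 and 0.515), and their signs turned when *in vivo* replicate 1 was left out (0.19 and 0.05) and, at D3, without D3 replicate 2 (0.14).

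The HSP90 genes differed by less than 1 on the log2 scale in each of the 6 comparisons. *Hsp90aa1*, the more inducible of the pair (ENSMUSG00000021270, chromosome 12: 110656842-110669166, minus strand), was at 952 and 880.4 CPM *in vivo*, 1264 and 1061 CPM in 2D, 759.8 and 593 CPM in D3 organoids and 600.4 and 720.1 CPM in D7 organoids. All 4 organoid libraries lay below the *in vivo* ones and both 2D libraries above them. Organoids were below 2D by -0.78 at D3 and -0.82 at D7 (edgeR adjusted p = 0.00089 and 0.000515). The falls from *in vivo* were smaller and less stable. The D3 difference of -0.44 ± 0.16 stood at an edgeR adjusted p of 0.0497 and was lost under 13 of 18 alternatives, including the omission of any library other than D3 replicate 1 (the value without D3 replicate 2 was -0.20). The D7 difference of -0.47 (edgeR adjusted p = 0.0292) was lost without *in vivo* replicate 1 (-0.42, 0.151), *in vivo* replicate 2 (-0.52, 0.0572) or D7 replicate 1 (-0.35, 0.224). The excess in 2D over *in vivo* was 0.34 (edgeR adjusted p = 0.0943) and was not called under 14 of 18 alternatives. It passed in limma-voom (0.34, limma-voom adjusted p = 0.0459). In edgeR it passed with no filter (0.42, edgeR adjusted p = 0.0192) and with only the 2 groups compared (0.36, 0.0378). Without D3 replicate 2 it was 0.40.

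*Hsp90ab1* encodes the constitutive cytosolic HSP90 (ENSMUSG00000023944, chromosome 17: 45878552-45891949, minus strand). *Hsp90ab1* was at 4071 and 3947 CPM *in vivo*, 5405 and 5141 CPM in 2D, 5283 and 4325 CPM in D3 organoids and 4029 and 4472 CPM in D7 organoids. Its D3 replicates spanned most of the range from *in vivo* to 2D. The rise in 2D over *in vivo* of 0.40 ± 0.14 (edgeR adjusted p = 0.03) was lost when any of the 4 *in vivo* and 2D libraries was left out (0.36 to 0.43, edgeR adjusted p = 0.0603 to 0.13), with library size alone (0.21, 0.217) and with a mean of at least 10 CPM (0.33, 0.0758). In edgeR with the settings used throughout, no other comparison of *Hsp90ab1* passed. The D7 difference from 2D (-0.31, edgeR adjusted p = 0.0784) passed under 7 of 18 alternatives, among them DESeq2's Wald test (-0.35, 0.0248), limma-voom (-0.31, 0.0227) and the omission of D3 replicate 1 (-0.31, 0.0281) or D3 replicate 2 (-0.36, 0.0145). The excess of D3 over *in vivo* passed without D3 replicate 2 (0.47, edgeR adjusted p = 0.018) and with no filter (0.36, 0.0186). Of the counts on the HSP90 pair, *Hsp90aa1* took 17.1% to 19.0% in *in vivo* and 2D libraries and 12.1% to 13.9% in organoid libraries, with no overlap. Exons of *Slc35b2* on the other strand overlap the 3′ end of *Hsp90ab1*, and 15.1% of its 3′ words recur elsewhere, among them in *Gm6368* with 145 counts in all.

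*Hspb1*, which encodes the small heat shock protein HSP25 of the mouse, an actin-associated holdase, had the largest log2 difference of the 10 members over the 6 comparisons. *Hspb1* (ENSMUSG00000004951, chromosome 5: 135916760-135918417, plus strand) was at 10.1 and 8.46 CPM *in vivo* (9.28 ± 1.15), 106 and 96.5 CPM in 2D (101 ± 6.71), 32.8 and 28.7 CPM in D3 organoids (30.7 ± 2.92) and 17.5 and 12.5 CPM in D7 organoids (15.0 ± 3.56). The 4 groups did not overlap, in the order 2D, D3, D7, *in vivo*. It rose 10.9-fold in 2D over *in vivo* (log2 3.45 ± 0.24, edgeR adjusted p = 3.23e-09) and 3.32-fold at D3 (1.73 ± 0.24, 2.34e-05). At D7 the rise was 1.64-fold (0.71 ± 0.24, edgeR adjusted p = 0.0313), lost without *in vivo* replicate 2 (0.59, 0.138) or D7 replicate 1 (0.43, 0.34) and in DESeq2's Wald test (0.69, 0.0517) and limma-voom (0.73, 0.0712). Organoids were below 2D at D3 by -1.72 and at D7 by -2.74, and D7 below D3 by -1.02 (edgeR adjusted p = 5e-06, 3.25e-08 and 0.004), the last lost without D7 replicate 2 (-0.81, 0.0741). Of its 3′ words 76.7% recur elsewhere, but the copies that share them, *Hsp25-ps1* and *Gm58342*, had 12 and 3 counts in all libraries, and its level is uncertain in the same way.

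*Hspe1* encodes HSP10, the lid of the mitochondrial chaperonin, and was lower in all 3 cultures than *in vivo*. *Hspe1* (ENSMUSG00000073676, chromosome 1: 55127260-55130476, plus strand) was at 407 and 358 CPM *in vivo* (382 ± 34.8), 224 and 179 CPM in 2D (201 ± 31.6), 178 and 217 CPM in D3 organoids (197 ± 27.2) and 179 and 179 CPM in D7 organoids (179 ± 0.597). No cultured library reached the *in vivo* level, and the cultured groups overlapped. It fell by 0.92, 0.95 and 1.09 on the log2 scale (SE 0.16 each, edgeR adjusted p = 0.000193, 0.000232 and 5.5e-05), and no pair of cultures differed past the threshold. *Hspd1*, which encodes the HSP60 ring that HSP10 closes and lies head to head with *Hspe1*, was at 258 and 214 CPM *in vivo*, 277 and 224 CPM in 2D, 337 and 236 CPM in D3 organoids and 192 and 188 CPM in D7 organoids. Its differences from *in vivo* were 0.09 in 2D, 0.28 at D3 and -0.31 at D7 (edgeR adjusted p = 0.734, 0.279 and 0.197), so none passed, and the difference between the 2 genes' changes was not tested. Of the 3′ words of *Hspe1* 69.8% recur elsewhere in the genome, among them in *Commd10* and *Sp3*, so its level is uncertain.

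**Figure D3:**
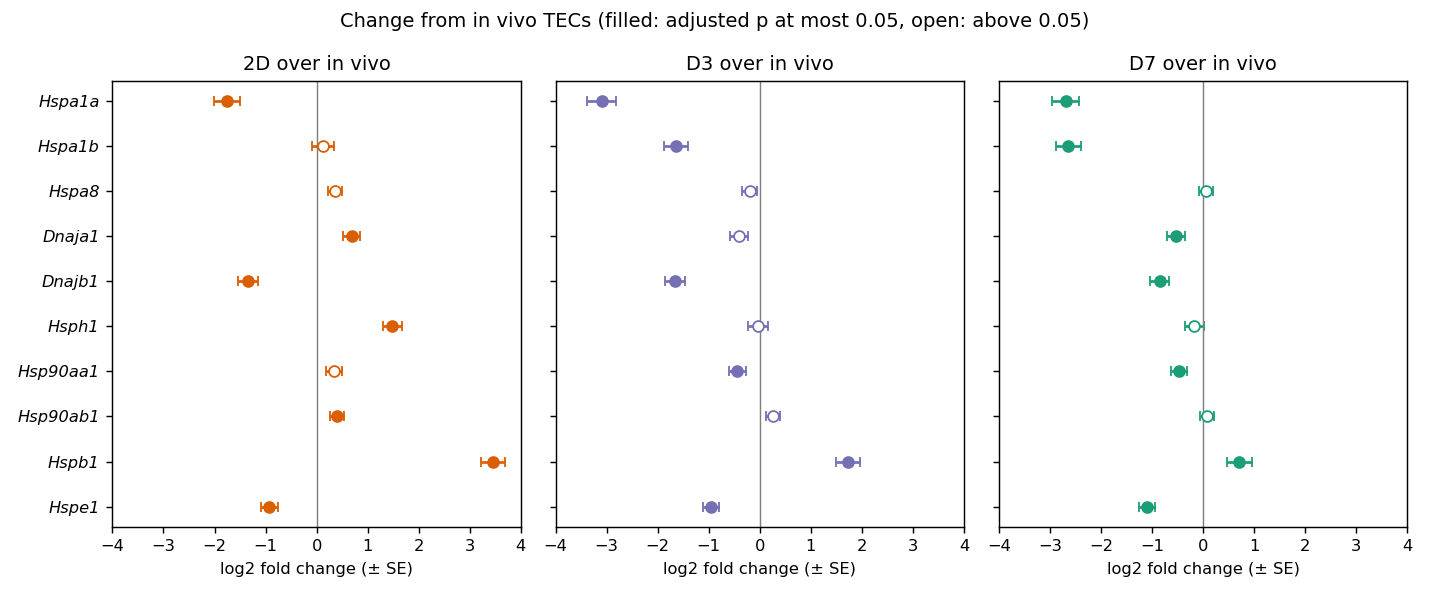
Log2 fold change from *in vivo* TECs (x axis) of the 10 members (y axis) in 2D, D3 and D7, with bars of 1 SE from edgeR's fit. Filled points have an adjusted p of at most 0.05, and *Hspb1* lies farthest right in 2D (3.45) and *Hspa1a* farthest left at D3 (-3.10).

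In 2D over *in vivo*, 7 of the 10 members passed the test, 4 higher and 3 lower, where 41.6% of all genes tested passed in either direction, 19.9% higher and 21.7% lower. Libraries of the 2 groups did not overlap for 9 members, against 69.6% of all genes. The median log2 change of the members was 0.35, beside -0.06 over all genes tested. The members did not move as a block, since *Hspb1*, *Hsph1*, *Dnaja1* and *Hsp90ab1* were higher and *Hspa1a*, *Dnajb1* and *Hspe1* lower.

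In D3 organoids over *in vivo*, 6 members passed, 1 higher (*Hspb1*) and 5 lower, beside 28.2% of all genes, with 14.1% higher and 14% lower. The median was -0.42 for the members and -0.01 for all genes, and 9 members did not overlap, against 61.6% of genes. In D7 organoids over *in vivo*, 7 members passed, 1 higher (*Hspb1*) and 6 lower, beside 34.8% of all genes, with 18% higher and 16.8% lower. The medians were -0.50 and 0.01, and 7 members did not overlap, against 69.9% of genes.

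Members that passed in edgeR between organoids and 2D were all lower in organoids. At D3 these were 7 of 10, beside 38.3% of all genes in either direction, 19.3% higher and 19.1% lower. Libraries did not overlap for 7 members, against 69.2% of genes. At D7 they were 6 of 10, beside 45.5% in either direction, 24.4% higher and 21.1% lower, and 9 members did not overlap, against 75.8% of genes. At an unadjusted p under 0.05, 0 members were higher at D3 and 1 at D7, DESeq2 called 0 higher at both times, and limma-voom called 0 higher at D3 and *Dnajb1* higher at D7. The median log2 change of the members was -0.93 at D3 and -0.88 at D7, and over all genes 0.03 and 0.10. Between D7 and D3 organoids 3 members passed, *Dnajb1* higher and *Hspa1b* and *Hspb1* lower, beside 20.8% of all genes, 10.9% higher and 9.91% lower, and 6 members did not overlap, against 64.7% of genes. These comparisons share libraries, so their counts are not independent of each other.

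The other chaperones and regulators were counted in lists of the same kind. The lists overlap, so a gene such as *Hspa4* is counted in more than 1, and they are not separate evidence. Of all genes tested, 19.9% were higher and 21.7% lower in 2D over *in vivo*. At D3 over *in vivo* the shares were 14.1% and 14%, and at D7 18% and 16.8%. Over 2D they were 19.3% and 19.1% at D3, and 24.4% and 21.1% at D7. A list count near these shares says nothing particular about the list. Of the HSF family and its regulators 4 of 5 genes were tested. *Hsf1* was at 16.7 and 15.0 CPM *in vivo*, 16.0 and 14.9 CPM in 2D, 14.4 and 10.1 CPM in D3 organoids and 9.43 and 4.75 CPM in D7 organoids. Its transcript did not differ past the threshold between 2D and *in vivo* (-0.04, edgeR adjusted p = 0.948) and was lower in D7 organoids than *in vivo* (-1.12, 0.0186). *Hsf2*, a partner of HSF1, was lower than *in vivo* at D3 (-0.74, edgeR adjusted p = 0.0191) and D7 (-0.73, 0.0169). *Hsbp1*, which binds HSF1 trimers, did not pass in any comparison with *in vivo*, and *Hsbp1l1*, named after its values were seen, was higher at D7 (3.32, with at most 1.04 CPM *in vivo*).

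Among 20 known HSF1-induced genes that are not members, some of them also in other lists, 12 were higher and 1, *Dnajb4*, lower in 2D than *in vivo*. Of all genes tested 19.9% were higher and 21.7% lower. The median log2 change was 0.65, beside -0.06 over all genes. *Hspa4*, an HSP110, rose by 0.60 (edgeR adjusted p = 0.00605), while *Ubb*, a polyubiquitin gene, stood at 0.11 (0.553). In organoids against *in vivo* 5 were higher and 3 lower at D3, and 7 higher and 2 lower at D7, with medians of 0.23 and 0.05. Shares over all genes were 14.1% higher and 14% lower at D3, and 18% and 16.8% at D7. The counts of lower genes were thus near or below those shares. Against 2D, 1 was higher and 7 lower at D3, and 2 higher and 9 lower at D7, with medians of -0.39 at both times. Over all genes these shares were 19.3% and 19.1% at D3, and 24.4% and 21.1% at D7.

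Of the 8 other small heat shock protein genes matched, 3 were tested. Against *in vivo* edgeR called 2 higher in 2D and 3 higher at D3 and at D7, where DESeq2 called 2 in each culture. Of all genes 19.9% were higher in 2D, 14.1% at D3 and 18% at D7. *Cryab*, which encodes αB-crystallin, was at 0.870 and 8.74 CPM *in vivo*, 120.4 and 96.9 CPM in 2D, 11.8 and 14.8 CPM in D3 organoids and 19.4 and 19.4 CPM in D7 organoids. Its *in vivo* libraries were far apart, but all cultured libraries lay above both, and it passed in 2D (4.42, edgeR adjusted p = 4.5e-07), D3 (1.40, 0.0338) and D7 (1.94, 0.00352). *Hspb8*, the partner of the co-chaperone BAG3, rose by 1.26 in 2D, 0.84 at D3 and 1.46 at D7 (edgeR adjusted p = 1.33e-05, 0.0012 and 4.55e-06). *Hspb6* passed at D3 (1.88) and D7 (1.61) but not in 2D (0.40, edgeR adjusted p = 0.446).

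Other cytosolic HSP70 and HSP110 genes were split, with 3 of 6 higher and 1 lower in 2D than *in vivo*. The shares of all genes were 19.9% and 21.7%, here and for the J-domain genes below. *Hspa4l* rose by 1.27 in 2D and fell by 0.90 at D3 and by 1.35 at D7 from *in vivo* (edgeR adjusted p = 3.37e-05, 0.00189 and 5.24e-05). *Hspa14*, which works at the ribosome, was lower at D7 (-1.28, edgeR adjusted p = 0.0021). Of 9 further J-domain genes 4 were higher and 1 lower in 2D, *Dnajb6* by 1.68 and *Dnaja2* by 0.79 among the former (edgeR adjusted p = 3.41e-06 and 0.00128), and *Dnajb14* stood at 0.24 (0.336). At D7 against *in vivo* 2 of the 9 were higher and 1 lower, near the 18% and 16.8% of all genes.

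Among 11 HSP70 co-chaperones 6 were higher and 1, *Bag4*, lower in 2D than *in vivo*, beside 19.9% and 21.7% of all genes. At D3 14.1% of all genes were higher and 14% lower, and at D7 18% and 16.8%. In edgeR 6 of the 11 co-chaperones were higher and 0 lower at D3, and 4 higher and 0 lower at D7. The count of lower genes was also 0 at an unadjusted p under 0.05, in DESeq2 and in limma-voom. At D7 DESeq2 called 2 higher and limma-voom 4. *St13*, which stabilises the ADP state of HSP70, rose by 0.83 in 2D and *Bag1*, an exchange factor, by 0.78 (edgeR adjusted p = 0.000355 and 0.0029), while *Dnajc7* stood at 0.30 (0.199). Among 13 HSP90 co-chaperones 4 were higher and 1 lower in 2D and again at D7. *Ptges3*, which encodes p23, rose by 0.54 in 2D (edgeR adjusted p = 0.00753), *Cdc37*, the kinase adaptor, by 0.42 in 2D and 0.51 at D7 (0.0469 and 0.023), and *Fkbp4* by 0.93 at D7 (0.000253). *Fkbp5*, a target of glucocorticoid signalling named after its values were seen, was the gene lower in 2D (-3.41), at D3 (-2.0) and at D7 (-3.02).

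The cytosolic chaperonin TRiC folds actin and tubulin, and prefoldin delivers them to it. Of 14 genes of the pair of complexes edgeR called 5 higher and 0 lower in 2D than *in vivo*, 1 higher and 4 lower at D7 than *in vivo*, and 0 higher and 8 lower at D7 than in 2D. Where the count was 0 it was also 0 at an unadjusted p under 0.05, in DESeq2 and in limma-voom. Of all genes 19.9% were higher and 21.7% lower in 2D over *in vivo*. The shares were 18% and 16.8% at D7 over *in vivo*, and 24.4% and 21.1% at D7 over 2D. *Cct2* rose by 0.80 in 2D and was lower by -0.53 at D7 (edgeR adjusted p = 0.000572 and 0.0155), *Cct6a* rose by 0.36 in 2D (0.0469), and *Cct8* was lower at D7 (-0.45, 0.032). Of 12 mitochondrial chaperones and proteases 5 were higher and 1 lower in 2D, and 1 higher and 2 lower at D7. The D7 counts were at or below the shares over all genes. *Hspa9*, the mitochondrial HSP70, rose by 0.99 in 2D and 0.53 at D3 (edgeR adjusted p = 5.43e-05 and 0.0147), and *Lonp1*, a matrix protease, by 0.49 in 2D (0.0453). Of 15 chaperones of the endoplasmic reticulum 7 were higher and 2 lower in 2D, and 3 higher and 4 lower at D7. The most abundant of them did not pass against *in vivo* in any culture, *Hspa5* with differences of -0.19, -0.23 and -0.34, *Hsp90b1* with 0.24, 0.30 and -0.22, and *Calr* with 0.20, 0.08 and 0.23.

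**Figure D4:**
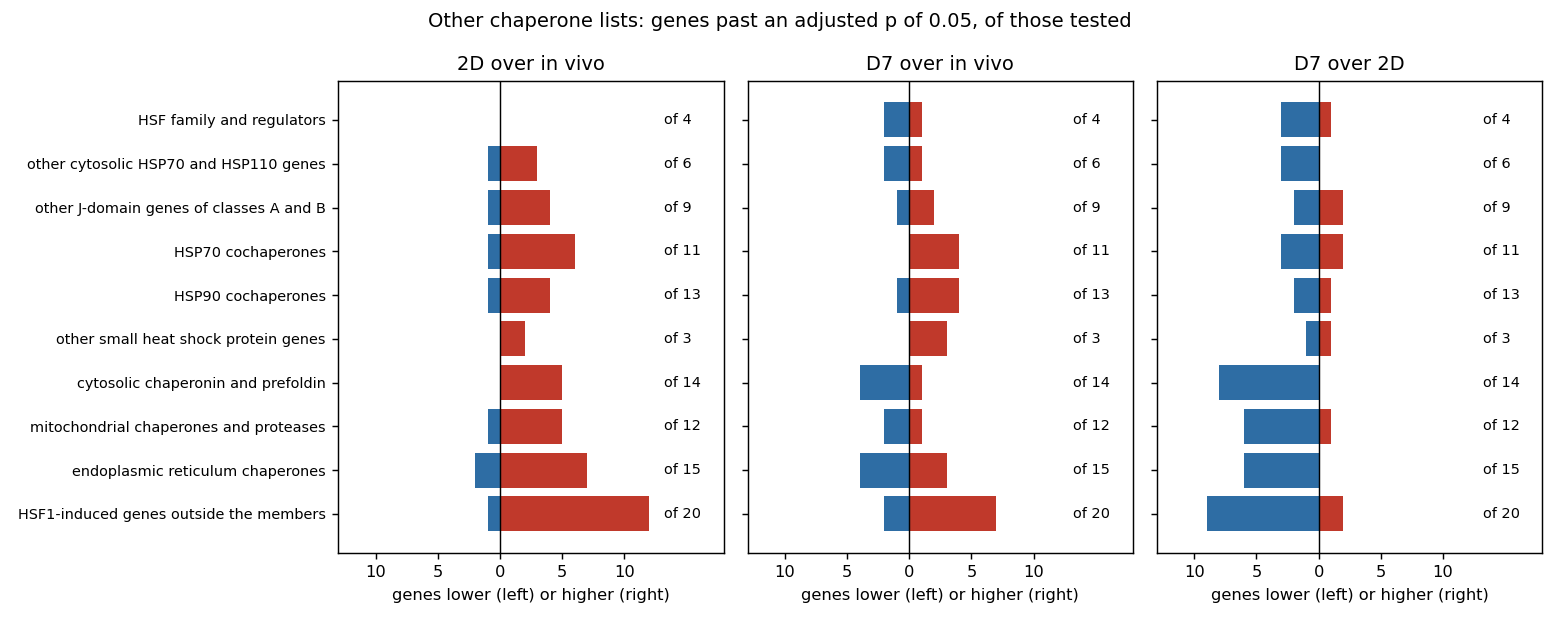
Number of genes past an edgeR adjusted p of 0.05 in each other chaperone list, higher (right of 0) or lower (left of 0), in 2D over *in vivo*, D7 over *in vivo* and D7 over 2D, with the number tested at the right. Bars lie mostly to the right in 2D over *in vivo*, with 12 of 20 HSF1-induced genes, and mostly to the left in D7 over 2D.

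Immediate early genes are transcribed soon after cells are digested and sorted. The summed level of 22 immediate early genes, none of them a member, was 4464 and 4301 CPM *in vivo*, 2125 and 1951 CPM in 2D, 639 and 533 CPM in D3 organoids and 784 and 696 CPM in D7 organoids. Against *in vivo* TECs 13 were lower and 5 higher in 2D (*Ier3*, *Ier5*, *Klf4*, *Klf6* and *Ccn1*, named after their values were seen), and 20 were lower and 0 higher at D3 and at D7 in edgeR, with 0 higher also at an unadjusted p under 0.05, in DESeq2 and in limma-voom. Of all genes 21.7% were lower and 19.9% higher in 2D, 14% and 14.1% at D3, and 16.8% and 18% at D7. *Jun*, a subunit of AP-1, was at 686 and 666 CPM *in vivo*, 148 and 126 CPM in 2D, 31.4 and 21.9 CPM at D3 and 63.9 and 62.1 CPM at D7. *Egr1* and *Nfkbia* fell in 2D by 3.39 and 1.46 (edgeR adjusted p = 2.73e-09 and 5e-07). *Hspa1a*, *Dnajb1* and *Hspe1* were also highest in the *in vivo* libraries, whereas *Hspb1*, *Hsph1* and *Dnaja1* were highest in both 2D libraries. So were *Hspa8* and *Hsp90aa1*, whose excess over *in vivo* did not pass the test. The part of digestion and sorting in any of these levels was not tested.

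**Figure D5:**
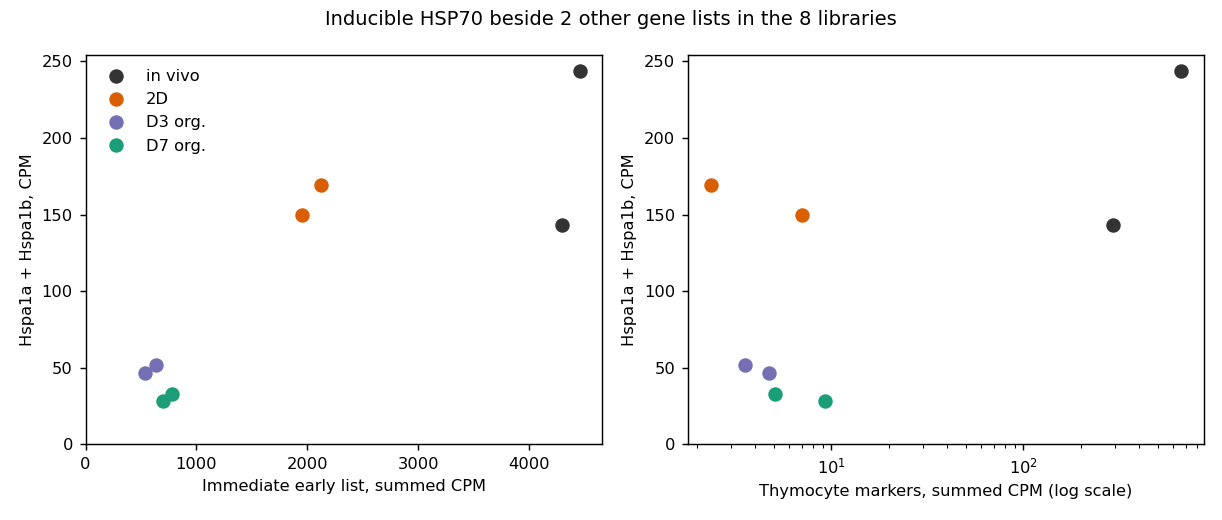
Summed level of *Hspa1a* and *Hspa1b* in CPM (y axis, from 0) against the summed level of 22 immediate early genes (left, linear axis) and of 10 thymocyte markers (right, log axis) in the 8 libraries, coloured by group. The 2D libraries, at 169 and 149 CPM, lie between the *in vivo* libraries at 244 and 143 CPM, and their thymocyte markers are at 7.05 CPM or less.

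Across the 8 libraries the members fell into more than 1 pattern. Pearson's r of log2 CPM, given as a description because the libraries share groups, was 0.925 between *Hsph1* and *Dnaja1*, 0.922 between *Dnaja1* and *Hsp90aa1*, and 0.883 between *Hspa1a* and *Hspe1*. It was 0.743 between the twin genes *Hspa1a* and *Hspa1b* and -0.730 between *Dnajb1* and *Hspb1*. Among all genes tested, the pattern of *Hspb1* was nearest to *Gsn* (0.996) and *Slc6a6* (0.995), that of *Hsph1* to *Serpinb1a* (0.998) and *Socs6* (0.995), and that of *Hspa1a* to *Grap2* (0.996) and *Nkap* (0.991). The nearest genes were *Arhgef10l* (0.985) and *Agfg1* (0.984) for *Hspa1b*, *Hacd1* (0.990) and *AW209491* (0.989) for *Dnaja1*, *Kcnq3* (0.990) and *Adcy1* (0.987) for *Dnajb1*, and *Klhl15* (0.982) and *Psmb4* (0.981) for *Hspe1*. For *Hspa8* *Zfhx2* (0.970) was nearest, for *Hsp90aa1* they were *Shkbp1* (0.980) and *Anxa9* (0.976), and for *Hsp90ab1* *Esf1* (0.988) and *Gm19325* (0.984). With 8 libraries in 4 groups, many genes reach such values.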

How the data were processed

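Gene expression was profiled in 8 libraries, 2 per group, made by QuantSeq, a kit that sequences near the poly(A) tail. STAR was the aligner and GRCm39 the genome build, and the authors deposited 1 raw count per Ensembl gene and library. Whether strand was used in counting, how reads that fit several places were treated and the annotation release are not given in the sources used here. The submitters' processing notes name R 4.1.2, edgeR and limma. Symbols and positions were matched for 56236 of 56923 genes in GENCODE M39.

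Replicates of a group differed by more than sampling noise (chi-square per degree of freedom 6.82 to 8.70). Counts were scaled by TMM factors, and the 14504 genes that reached 1 CPM in 3 or more libraries were tested with edgeR 4.0.16 (R 4.3.3) by its quasi-likelihood test in 1 model of the 4 groups, with Benjamini-Hochberg adjustment over all genes and a threshold of 0.05. Pattern likeness used log2 CPM with a prior count of 2. The procedure was run on counts simulated with its own fitted spread, in which few genes changed, equally up and down and in 2D alone. How it performs where many genes change was not tested. Promoters and 3′ ends were read from GRCm39 with Python 3.11.15, as were 50-base words searched across the genome.

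The text names all members, the 3 genes with the highest mean CPM of each other list, *Hsf1* and *Hspd1*, and for each member the 2 genes with the highest r. Some genes that this rule names are not reported here. The members and the lists were chosen with earlier results of these data known. Of 9 small heat shock protein genes besides *Hspb1*, 8 were matched to a symbol.

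Alternatives were DESeq2 1.42.0 (its size factors, and its Wald test), limma-voom (run here with limma 3.58.1; the authors' version is not given in the sources used here), library size alone, no filter, a mean of at least 10 CPM, only the 2 groups compared, a replicate block, each library left out in turn, an added limit on fold change, ribosomal RNA genes left out, and *Hspa1a* and *Hspa1b* summed.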

Additional observations from a re-analysis of the deposited data

How the results depend on the processing

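Of 1080 log2 fold changes of single members under 18 alternatives each, 976 kept their direction and their side of the threshold, 33 gained and 50 lost a call, and 21 changed sign. Of the 36 calls, 20 held under every alternative run. With an absolute log2 fold change of at least 1, the members called fell from 7 to 4 in 2D over *in vivo* and from 7 to 3 in D7 over *in vivo*. With a library left out, the members called ranged from 0 to 3 in D7 over D3 (0 without D7 replicate 2 and 1 without D3 replicate 1), from 6 to 9 in 2D over *in vivo*, from 5 to 6 in D3 over *in vivo*, from 5 to 7 in D7 over *in vivo* and from 5 to 8 in D7 over 2D, and were 7 in D3 over 2D. In these fits a lone library is assumed to vary like the other groups.

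The sign changes concerned differences that were not called. With library size alone they were *Hspa1b* in 2D over *in vivo* (-0.0589), *Hsph1* at D3 over *in vivo* (0.0412), *Hsp90ab1* at D3 over 2D (0.12) and *Hspe1* over 2D at D3 (0.23) and D7 (0.0307). *Hsph1* at D3 over *in vivo* was 0.0629 with no filter and 0.0391 with ribosomal RNA genes left out, and *Hsp90aa1* at D7 over D3 was 0.00835 with a mean of at least 10 CPM. With a library left out, the ranges that crossed 0 were -0.24 to 0.62 for *Hspa1b* in 2D over *in vivo*, -0.22 to 0.19 and -0.37 to 0.0503 for *Hsph1* at D3 and D7 over *in vivo*, -0.0541 to 0.19 for *Hspa8* at D7 over *in vivo*, -0.29 to 0.0217 for *Hsp90ab1* and -0.18 to 0.14 for *Hspe1* at D3 over 2D, and -0.27 to 0.15 for *Hsp90aa1* and -0.35 to 0.0466 for *Dnaja1* at D7 over D3. The cause was not tested.

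The labels give the groups the same replicate numbers without saying that a number marks a shared litter or day. Deviations of same-numbered libraries over all genes tested correlated at 0.0257 to 0.132. The numbers were not taken as pairs, though these correlations cannot settle whether they are. *Hspa1a*, *Hspa1b*, *Hspb1*, *Hsph1* and *Dnaja1* were higher in replicate 1 in all 4 groups (*Hsph1* at D7 by a ratio of only 1.001), and the other members were not. With the replicate block the members called were 8, 7 and 7 in 2D, D3 and D7 over *in vivo*, 7 and 7 in D3 and D7 over 2D, and 3 in D7 over D3, gaining *Hspa8* in 2D over *in vivo*, *Dnaja1* at D3 over *in vivo* and *Dnajb1* at D7 over 2D. Every member had 44 counts or more in every library, and with 2 libraries a group the spread of replicates limits each value.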
